A study of Homo sapiens with 8 samples.

Results

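NR3C1 encodes the glucocorticoid receptor. It is 1 of 19775 genes that the platform annotation gives as the single symbol of a probe set, and 5 of the 54675 probe sets carry it. They are 201865_x_at, 201866_s_at, 211671_s_at, 216321_s_at and 232431_at, and no probe set lists NR3C1 together with another gene. A probe set is a group of short oligonucleotides that read 1 stretch of RNA. The suffix _s_at marks probes that can match more than 1 transcript, and _x_at marks a set in which some probes may cross-hybridise. All 5 read the same gene on the same arrays, so they are not replicates of each other. Their courses over time were compared, but differences in level between them were not tested.

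The glucocorticoid receptor is a nuclear receptor. Without hormone it is held in the cytosol by heat shock chaperones, and with hormone it moves to the nucleus, binds DNA and raises or lowers the transcription of its targets. In many cell types the hormone lowers the receptor's own messenger RNA, whereas in glucocorticoid-sensitive T-lineage leukaemia cells a rise, called auto-induction, has long been described. The gene has several alternative first exons, each with its own promoter, that feed into a common coding sequence.

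The cells were CCRF-CEM-C7-14, a glucocorticoid-sensitive human line derived from T-cell acute lymphoblastic leukaemia. All groups shared a change into medium whose serum had been stripped of steroids with charcoal. The 0 h group (3 arrays) received no treatment, and the 2 h group (3 arrays) and the 10 h group (2 arrays) received 1 µM dexamethasone, a synthetic glucocorticoid, for that time. The arrays are labelled as biological replicates of 1 cell line. Nothing says whether the cultures were separate, and p-values therefore describe only how far these arrays differ. No time-matched arrays without hormone were used here, so hormone and time in stripped medium cannot be told apart. Whether more RNA per cell or a different make-up of the culture gives a higher value cannot be told apart in total RNA.

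The values are log2 expression made by the authors with RMA. The 27 Bacillus control probe sets, which match no human RNA, reached 4.73 at most, and a value at or under that was taken as background. Array medians ran from 4.68 to 5.01, and 3 arrays (0 h replicate 2, 2 h replicate 3 and 10 h replicate 1) had the lowest. The 3-prime minus 5-prime difference of actin controls, which tracks RNA integrity, lay between 0.32 and 0.67 at 0 h, between 0.40 and 0.61 at 2 h and between 0.29 and 0.36 at 10 h. Of 13 measured T-cell markers, 12 lay above background, among them CD3D, CD3E, CD3G and CD7, while CD2 did not. Of 5 measured B-cell markers, CD79A, CD79B and PAX5 were above background and MS4A1 and BLNK were not. The summed linear signal of those 5 ran from 474 to 576 at 0 h, from 502 to 652 at 2 h and from 679 to 743 at 10 h. It was thus higher at 10 h than at 0 h on every array, as NR3C1 was, with none of the 5 called, and its part in the NR3C1 result was not tested. Above background were 2 of 6 measured markers of myeloid cells, 2 of 5 of natural killer cells, 2 of 3 of erythroid cells, and 4 of 6 of epithelium and stroma. None of these was called in any comparison. The summed signals of these 4 lists overlapped between 0 h and either treated time.

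RefSeq (GRCh38.p14) lists 7 transcription starts of NR3C1 in the promoter table, all on the minus strand of chromosome 5, in a distal and a proximal group. The distal group has 2 starts, 703 bases apart. The proximal group of 5 starts lies 30157 to 32229 bases downstream of the most distal start. The 250 bases upstream of the most upstream start of each group are shown, because these 2 stretches lead up to the first annotated start of each group. The stretches upstream of the other starts are not shown. Capitals mark the letters GGAA (core of sites for ETS factors) and AACNG (core of sites for MYB) on either strand, both families having been described at NR3C1 promoters; where matches overlap, the capitals run together.
Distal, chr5:143435513-143435762, minus strand: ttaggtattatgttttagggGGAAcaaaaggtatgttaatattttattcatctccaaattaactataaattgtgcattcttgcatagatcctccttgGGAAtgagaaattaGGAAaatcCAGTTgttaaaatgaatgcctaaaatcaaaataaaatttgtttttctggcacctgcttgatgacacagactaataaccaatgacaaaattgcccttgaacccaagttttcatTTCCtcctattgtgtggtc
Proximal, chr5:143405356-143405605, minus strand: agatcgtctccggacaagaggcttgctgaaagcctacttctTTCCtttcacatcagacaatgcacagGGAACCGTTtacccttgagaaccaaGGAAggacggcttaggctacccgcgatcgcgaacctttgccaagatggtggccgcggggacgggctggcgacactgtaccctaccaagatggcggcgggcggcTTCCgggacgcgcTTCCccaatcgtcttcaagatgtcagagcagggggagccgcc

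The distal and proximal stretches differ in base composition. The distal pair held 32.8% and 39.6% G or C, with 0 and 3 CpG dinucleotides. The 5 proximal windows held 59.2% to 82.0% G or C and 17 to 42 CpG. The median over 35116 promoter windows of the same length was 58% G or C. The full glucocorticoid response element (AGAACA, 3 bases of any kind, TGTTCT), a looser form (GNACA, 3 bases of any kind, TGTNC) and the single-arm site AGAACA were searched on both strands and matched none of the 7 windows. Of all windows, 0.00285%, 0.327% and 12.4% hold them; any match to the full element also matches the other 2. GGAA was in all 7 windows (22 matches) and in 92.7% of all windows. AACNG was in 5 of 7 (7 matches) and in 70.6% of all. The GC box GGGCGG was in the 5 proximal windows (10 matches), in neither distal window, and in 42.6% of all. The AP-1 site TGANTCA was in 1 of 7 windows, a distal one, and in 6.57% of all. The letters CCAAT were in 3 of 7 windows and in 32% of all, and TATAAA in 1 of 7 and in 10.7% of all. A match describes letters, not binding, and the windows cover little of the gene. The arrays do not show which start was used.

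The main question was whether the receptor's own RNA changes with hormone. Mean NR3C1 signal stood in the order 0 h, 2 h, 10 h on all 5 probe sets. By 10 h, 4 of the 5 had risen, by 2.80-fold to 3.47-fold, and the fifth, a dim probe set, had 3.60-fold without passing the test. At 2 h the same 4 probe sets were 2.04-fold to 2.44-fold above 0 h on arrays that did not overlap, but none passed over all probe sets tested. Between 2 h and 10 h none passed.

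The brightest probe set, 201865_x_at, had 11.24, 10.72 and 10.92 at 0 h (replicates 1 to 3). It had 12.27, 12.12 and 11.55 at 2 h, and 12.36 and 12.53 at 10 h. Every treated array was above every untreated one, and both 10 h arrays were above all 2 h arrays, by 0.08 at the closest. The lowest of the 2 h arrays, replicate 3, is among those with the lowest medians. Its group means were 10.96 ± 0.26 (SD, n = 3), 11.98 ± 0.38 (SD, n = 3) and 12.44 ± 0.12 (SD, n = 2).

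Probe set 211671_s_at had 10.64, 10.05 and 10.15 at 0 h, 11.82, 11.68 and 11.05 at 2 h, and 11.91 and 12.14 at 10 h. Here too the 3 times did not overlap, and 2 h replicate 3 was again the lowest treated array. Group means were 10.28 ± 0.32 (SD, n = 3), 11.51 ± 0.41 (SD, n = 3) and 12.03 ± 0.16 (SD, n = 2).

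Probe set 216321_s_at had 10.54, 10.32 and 10.22 at 0 h, 11.80, 11.55 and 11.18 at 2 h, and 11.93 and 11.83 at 10 h. Its untreated arrays were the closest together of the 5 probe sets, within 0.32, and the lower 10 h array was 0.03 above the highest 2 h array. Group means were 10.36 ± 0.16 (SD, n = 3), 11.51 ± 0.31 (SD, n = 3) and 11.88 ± 0.08 (SD, n = 2).

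Probe set 201866_s_at had 8.66, 8.40 and 7.73 at 0 h, 9.99, 9.31 and 9.34 at 2 h, and 9.99 and 10.13 at 10 h. Treated arrays were again all above untreated ones, but 2 h replicate 1 reached the level of 10 h replicate 1. Group means were 8.26 ± 0.48 (SD, n = 3), 9.55 ± 0.39 (SD, n = 3) and 10.06 ± 0.10 (SD, n = 2).

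Probe set 232431_at was dim. It had 5.08, 4.84 and 4.28 at 0 h, 6.65, 4.71 and 5.64 at 2 h, and 6.59 and 6.57 at 10 h. At 0 h replicate 3 and at 2 h replicate 2 it was within the range of the Bacillus controls, and its 2 h arrays spread over 1.94, wide enough to overlap both other times. Both 10 h arrays were above all untreated arrays. Group means were 4.73 ± 0.41 (SD, n = 3), 5.67 ± 0.97 (SD, n = 3) and 6.58 ± 0.01 (SD, n = 2), so the untreated mean was at the background limit.

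**Figure D1:**
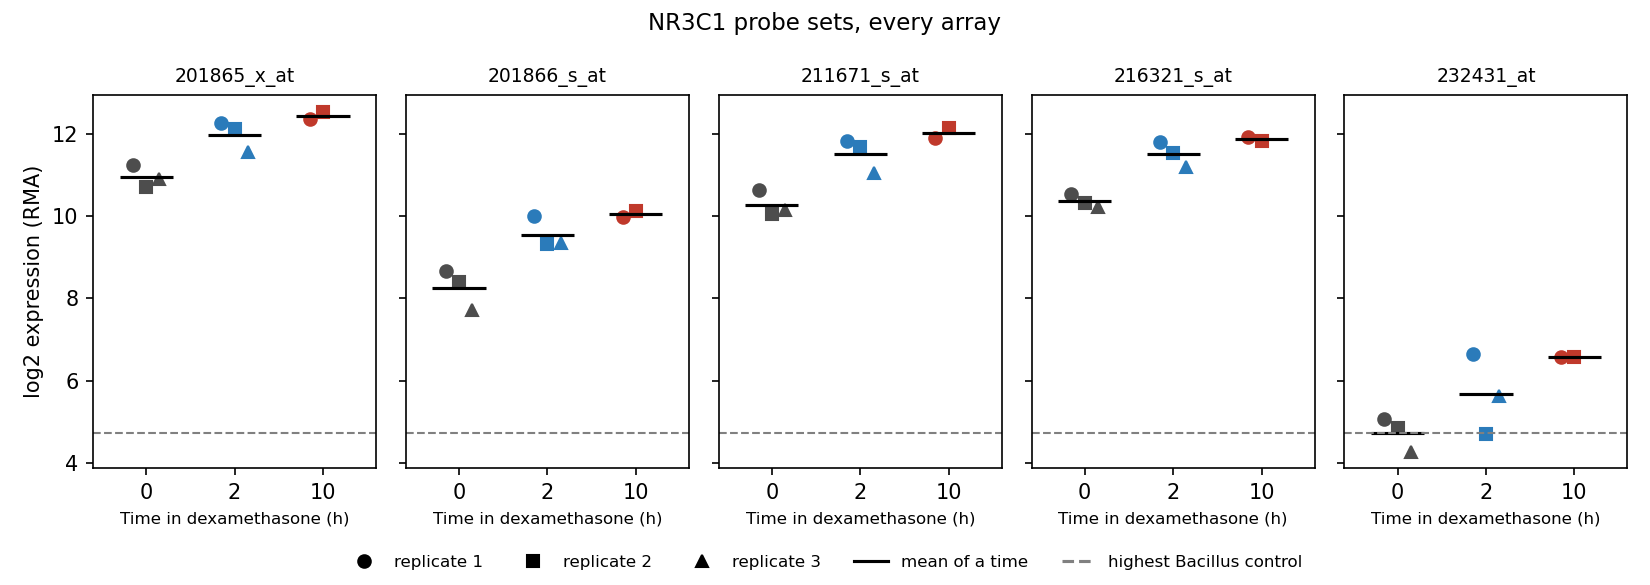
Log2 expression (vertical axis) of the 5 NR3C1 probe sets on each of the 8 arrays against time in dexamethasone in hours, with the time points drawn at even steps; marker shape gives the replicate number, the black line is the mean of a time (n = 3, 3 and 2) and the dashed line the highest Bacillus control value, 4.73. On the first 4 probe sets every treated array lies above every untreated array, while 232431_at starts at the dashed line and spreads over 1.94 at 2 h.

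For 10 h against 0 h, 4 of 5 NR3C1 probe sets rose in limma (p adjusted by Benjamini-Hochberg over 54613 probe sets, threshold 0.05), where 0.245% of all probe sets rose. Probe set 216321_s_at rose by 1.52 ± 0.21 (log2, SE), that is 2.87-fold, with 2.09 to 3.94 as the 95% interval (limma adjusted p = 0.00309). Probe set 211671_s_at rose by 1.75 ± 0.25 (3.35-fold, 2.31 to 4.86; adjusted p = 0.00369). Probe set 201866_s_at rose by 1.80 ± 0.27 (3.47-fold, 2.32 to 5.20; adjusted p = 0.00592). The brightest, 201865_x_at, rose by 1.49 ± 0.24 (2.80-fold, 1.97 to 3.98; adjusted p = 0.00976). These 4 ranked between 60 and 83 of 54613 by p. The dim 232431_at had 1.85 ± 0.39 (3.60-fold, 2.02 to 6.42; adjusted p = 0.0903). For all 5 the 10 h arrays were above the 0 h arrays without overlap, as for 5.92% of all probe sets.

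The 10 h call rested on both 10 h arrays. Leaving out either of them left 1 array at 10 h. Fewer of the 4 probe sets were then called, while their log2 fold changes stayed between 1.40 and 1.87. Leaving out all 3 arrays with the lowest medians also left 1 array at 10 h. The calls were then lost, with the 5 probe sets at 1.45 to 1.94. In these settings calls were also fewer for genes long known to be raised by the receptor. The share of all probe sets called in them is not given here. Within those 3 arrays alone (1 per time) the 5 probe sets had 1.59 to 1.86, and within the other 5 arrays 1.45 to 1.94.

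For 2 h against 0 h, no NR3C1 probe set was called, and 5 of 54613 (0.00916%) rose in all. At an unadjusted p below 0.05 all 5 were higher, as were 0.679% of all probe sets. The log2 differences were 1.15 ± 0.19 (SE) for 216321_s_at (2.22-fold, 95% interval 1.67 to 2.95; limma adjusted p = 0.209) and 1.24 ± 0.23 for 211671_s_at (2.36-fold, 1.69 to 3.28; adjusted p = 0.465). They were 1.29 ± 0.24 for 201866_s_at (2.44-fold, 1.70 to 3.50; adjusted p = 0.511) and 1.03 ± 0.21 for 201865_x_at (2.04-fold, 1.49 to 2.79; adjusted p = 0.795). The dim 232431_at had 0.93 ± 0.35 (1.91-fold, 1.14 to 3.21; adjusted p = 1). The first 4 ranked 6 to 14 of 54613 by p, close behind the 5 that were called. Their 2 h arrays did not overlap the 0 h arrays, as for 2.77% of all probe sets.

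Other settings of limma did call NR3C1 at 2 h. With trended robust variances 4 probe sets passed (all but 232431_at), with array weights 211671_s_at and 216321_s_at passed, and with 1 probe set per gene fitted for the other genes 216321_s_at passed. The share of all probe sets called under each of these settings is not given here, so these counts cannot be set against it. Within the 3 arrays with the lowest medians the 5 differences were 0.80 to 0.99, and within the other 5 arrays 1.00 to 1.46. Without 2 h replicate 1, the highest 2 h array on all 5, the differences of the 4 brighter probe sets were 0.88 to 1.08 and that of 232431_at was 0.44. Without 2 h replicate 3, the lowest on 3 of the 4 brighter probe sets, those of the 4 were 1.24 to 1.47.

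For 10 h against 2 h, no NR3C1 probe set was called, and 0.106% of all probe sets rose. Probe set 201865_x_at had 0.46 (log2, 95% interval −0.05 to 0.97), 201866_s_at 0.51 (−0.07 to 1.09), 211671_s_at 0.51 (−0.03 to 1.05) and 216321_s_at 0.37 (−0.09 to 0.83). Their limma adjusted p was 1 in each case. The intervals reach as far as a 2.13-fold rise, so they cover both no further change and a further rise of up to that size. The dim 232431_at had 0.91 (0.08 to 1.75; adjusted p = 1). The 10 h arrays were above all 2 h arrays on 3 probe sets (201865_x_at, 211671_s_at and 216321_s_at), by 0.03 to 0.09, as for 5.00% of all probe sets. On these means 69.0% to 75.6% of the 10 h log2 difference was present at 2 h on the 4 brighter probe sets, and 50.6% on 232431_at. Both differences in that share use the same untreated arrays.

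**Figure D2:**
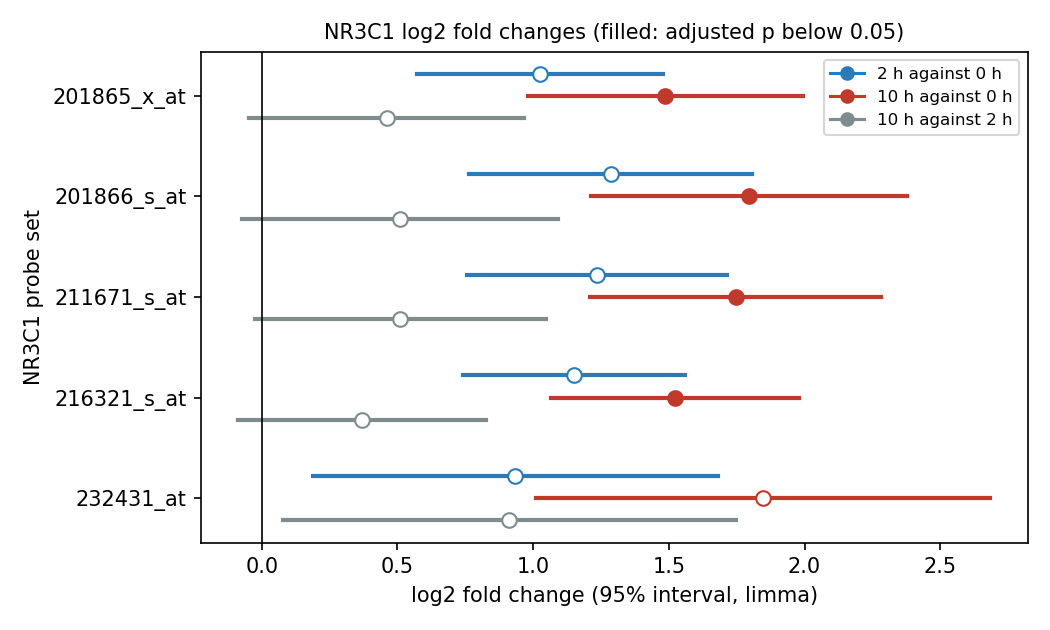
Log2 fold changes (horizontal axis) of the 5 NR3C1 probe sets in the 3 comparisons, from limma over all 8 arrays; bars are 95% intervals before adjustment, and filled points passed at an adjusted p below 0.05. Only 4 points, all for 10 h against 0 h, are filled; the 2 h intervals lie above 0 without a call, and the 10 h against 2 h intervals of the 4 brighter probe sets include 0.

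A test without a variance model was run on each probe set over the 3 times. An exact permutation test of the F statistic over all 560 assignments of the 8 arrays gave p = 0.00714 for 201865_x_at, 211671_s_at and 216321_s_at. It gave exact p = 0.0143 for 201866_s_at and exact p = 0.0893 for 232431_at, where 0.00357 is the smallest the design allows. In limma's moderated F test over all probe sets the same 4 passed, with adjusted p from 0.00537 to 0.022, as did 0.192% of all probe sets, while 232431_at had an adjusted p of 0.294. Without 10 h replicate 2, 1 probe set stayed below 0.05 in the permutation test in place of 4.

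The probe sets of the gene were then compared in their course over time. Each was set against 201865_x_at on the same array, so that a shift of the whole array cancels, and 4 pairs were tested. Relative to it, 211671_s_at was 0.21 higher at 2 h and 0.26 higher at 10 h than at 0 h on the log2 scale. Its treated arrays did not overlap its untreated arrays in this difference (exact permutation p = 0.0143; exact p = 0.0571 without 10 h replicate 2). With 4 pairs tested, that p is not adjusted. For the other 3 the test gave exact p = 0.571 for 216321_s_at, 0.614 for 201866_s_at and 0.854 for 232431_at. Their relative changes at 10 h were 0.04, 0.31 and 0.36, and the spread between arrays of a time was largest for 232431_at, at 0.96 (SD, n = 3) at 2 h.

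**Figure D3:**
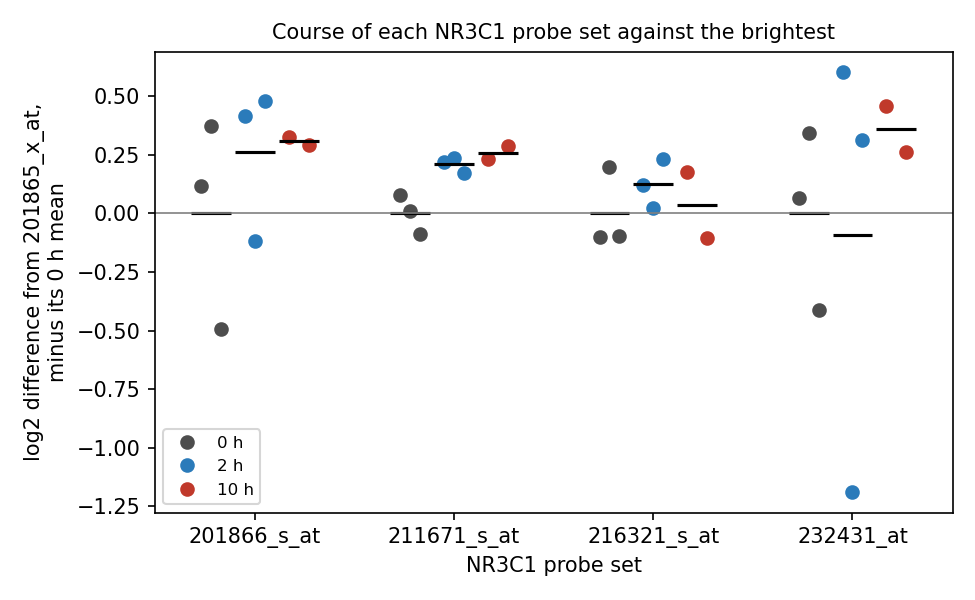
Log2 difference between each of 4 NR3C1 probe sets and 201865_x_at on the same array, less its 0 h mean (vertical axis), by probe set; each point is an array, coloured by time, and black lines are means (n = 3, 3 and 2). For 211671_s_at all 5 treated arrays lie above all 3 untreated ones, whereas the times overlap for the other 3 probe sets.

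The receptor works through a chaperone complex, coregulators and target genes, and these were read from the same fit. Of 18 genes of the chaperone complex, 15 were measured, by 40 probe sets. At 10 h, 3 of the 40 were called, where 0.245% of all probe sets rose. All 3 were higher and of FKBP5, a co-chaperone that lowers hormone binding and is itself a receptor target. The median over the 40 was −0.05, beside −0.03 over all probe sets. The brightest FKBP5 probe set, 224840_at, had 0.72 ± 0.20 (log2, SE; limma adjusted p = 1) at 2 h and rose by 2.16 ± 0.22 at 10 h. FKBP5 also rose between 2 h and 10 h, by 1.43 ± 0.22 (adjusted p = 0.0139), where no NR3C1 probe set passed; the difference between the genes was not tested. In that comparison 3 FKBP5 probe sets were called, where 0.106% of all probe sets rose. Of these 3, 1 was left without 2 h replicate 2 and 1 without 10 h replicate 1. Without 10 h replicate 2 it was 0, and 0 without the 3 arrays with the lowest medians. FKBP4, the related co-chaperone that aids transport of the receptor, had −0.46 ± 0.19 at 10 h (adjusted p = 1).

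Of 20 genes long known to be raised by the receptor, 19 were measured, by 52 probe sets. At 2 h, 3 of the 52 rose, beside 0.00916% of all probe sets, and at 10 h 27 of the 52, from 12 genes, beside 0.245%. The median log2 fold change was 0.36 at 2 h and 1.15 at 10 h, beside 0.01 and −0.03 over all probe sets. TSC22D3, the glucocorticoid-induced leucine zipper, rose by 2.78 ± 0.20 (SE; limma adjusted p = 2.16e-05) at 2 h and by 4.30 ± 0.22 (adjusted p = 1.96e-07) at 10 h. For TSC22D3 these values are those of 208763_s_at, and 1 of its 3 probe sets was called at 2 h and 2 at 10 h. The lowest of the 3 values was −0.11 at 2 h and −0.16 at 10 h. BTG1, an antiproliferative factor, rose by 2.01 ± 0.20 at 2 h and 2.69 ± 0.23 at 10 h. At each of these times 2 of its 3 probe sets were called. At 10 h IL7R, the interleukin 7 receptor chain, rose by 3.43 ± 0.20 and ISG20, an exonuclease, by 2.85 ± 0.24. The IL7R rise started from an untreated mean of 4.81, close to the background limit of 4.73. The list was drawn up with earlier results of these arrays known, so its direction is not independent evidence. The 2 h count was 1 without the 3 arrays with the lowest medians. The 10 h count was 16 without 10 h replicate 1, 17 without 10 h replicate 2 and 11 without the 3 arrays with the lowest medians; these settings were chosen for the lists after seeing the data.

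Of 13 factors described at NR3C1 promoters, all were measured, by 35 probe sets. None was called at 2 h, where 0.00916% of all probe sets rose. At 10 h 3 were called, all higher, where 0.245% of all probe sets rose. These 3 were all of JUN, a subunit of AP-1. JUN probe set 201466_s_at rose by 2.33 ± 0.24 (SE; limma adjusted p = 0.000185) at 10 h against 0 h and by 2.01 ± 0.24 (adjusted p = 0.00213) at 10 h against 2 h. That probe set had an untreated mean of 4.92, close to the background limit of 4.73. Of the 4 JUN probe sets, 3 were called against 0 h. Without 10 h replicate 2 the count against 0 h was 1 in place of 3. The count against 2 h was 2, where 0.106% of all probe sets rose. That count was 0 without 10 h replicate 1, 1 without 10 h replicate 2 and 0 without the 3 arrays with the lowest medians. MYB, a factor of immature blood cells, was at 11.62 ± 0.01 (SD, n = 3) at 0 h and had −0.11 ± 0.17 (SE) at 2 h and −0.0033 ± 0.19 at 10 h. ETS1, of the lymphocyte ETS factors, was at 11.26 ± 0.18 (SD, n = 3) and had 0.18 ± 0.18 and 0.21 ± 0.20. SPI1, the myeloid and B-cell ETS factor, was at background, at 4.08 ± 0.48 (SD, n = 3). None of MYB, ETS1 and SPI1 passed at either time.

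Other steroid receptors and the enzymes that handle glucocorticoids had no called probe set. Of 8 such genes measured by 21 probe sets, 7 probe sets lay above background and none passed in any of the 3 comparisons. Of all probe sets, 0.00916% rose at 2 h against 0 h, 0.245% at 10 h against 0 h and 0.106% at 10 h against 2 h. These shares count only rises, and the shares called lower are not given here. With shares that low, the lack of a called rise in so short a list says little about its genes. NR3C2, the mineralocorticoid receptor, which also binds glucocorticoids, was at background with 2.66 ± 0.31 untreated (SD, n = 3) and 2.74 ± 0.29 after 10 h (SD, n = 2). The progesterone receptor PGR was at background too, at 3.95 ± 0.27 (SD, n = 3) at 0 h. HSD11B1, which regenerates active glucocorticoid, and HSD11B2, which inactivates it, were at background, at 3.86 ± 0.44 and 4.16 ± 0.10 (SD, n = 3). Of 16 coregulators, 13 were measured, by 46 probe sets, and none was called in any comparison. Beside the same shares of rises over all probe sets, the lack of a called rise says little about them too. The coactivator NCOA2 had −0.09 ± 0.18 (SE) at 2 h and 0.15 ± 0.20 at 10 h.

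The genes whose arrays followed NR3C1 most closely were found by distance. For each of 23768 probe sets with a single symbol and an untreated mean above background, the log2 deviation from its own 0 h mean was set against that of 201865_x_at, and the root mean square difference over the 8 arrays was taken. Its median was 0.99. Within the gene it was 0.15 for 216321_s_at, 0.19 for 211671_s_at, 0.35 for 201866_s_at and 0.55 for 232431_at. The distance contains the noise of both probe sets and shared shifts of an array.

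The nearest other gene was ST3GAL6, a sialyltransferase, at 0.23, which had 1.03 ± 0.25 (SE) at 2 h and rose by 1.72 ± 0.28 at 10 h (limma adjusted p = 0.0122). DDIT4, an inhibitor of mTORC1 signalling, followed at 0.25, with 0.90 ± 0.18 at 2 h and a rise of 1.20 ± 0.20 at 10 h. DUSP10, a MAP kinase phosphatase, was at 0.26, with 0.70 ± 0.24 and a rise of 1.37 ± 0.26. GLUL, glutamine synthetase, was at 0.29, with 0.72 ± 0.23 and a rise of 1.56 ± 0.26. The small membrane protein gene SMIM3 was at 0.30, with 1.11 ± 0.23 and a rise of 1.80 ± 0.26. KLF13, a Kruppel-like factor, was at 0.31, with 1.18 ± 0.22 and a rise of 1.66 ± 0.25. Each of the 6 genes was read by its nearest probe set, and any other probe sets of these genes are not described here. Like the NR3C1 probe set 201865_x_at, these 6 probe sets were called at 10 h against 0 h and in neither other comparison. Such a course is what the choice by distance looks for, so it is a description. With quantile normalization, chosen for this measure after seeing the data, 5 of the 6 stayed among the nearest 6.

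**Figure D4:**
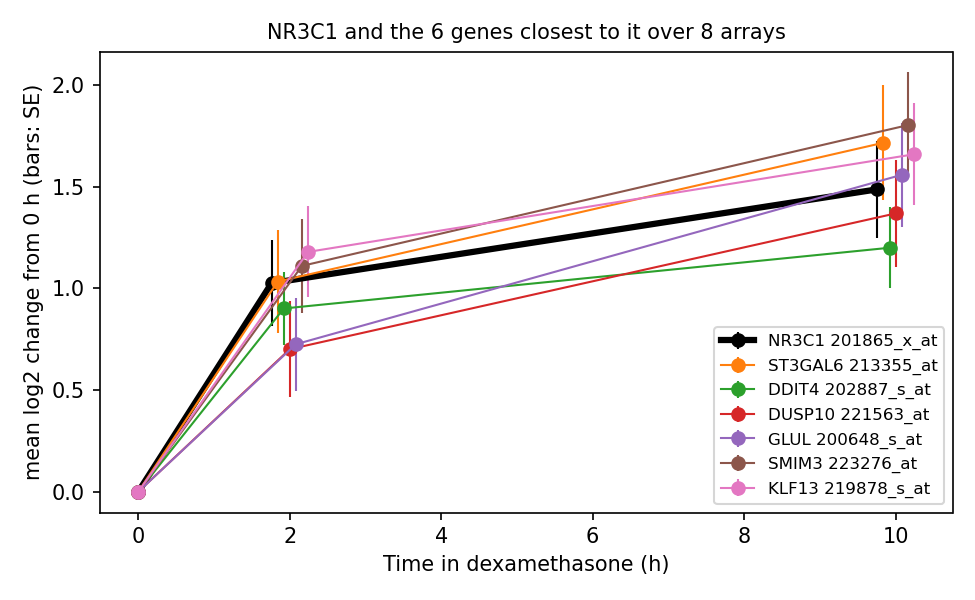
Mean log2 change from 0 h (vertical axis) against time in dexamethasone in hours for NR3C1 probe set 201865_x_at (thick black line) and the 6 genes nearest to it over the 8 arrays. Each gene is drawn by its nearest probe set. Bars are limma standard errors and points are shifted slightly sideways. NR3C1 stands at 1.03 at 2 h and 1.49 at 10 h, and the other 6 genes lie between 0.70 and 1.18 at 2 h and between 1.20 and 1.80 at 10 h.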

How the data were processed

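The deposited table holds log2 expression per probe set, made by the authors with RMA per the submitters' processing notes, version not given in the sources used here. Nothing says if all 8 arrays went through it as a single set; their medians are unequal.

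By the platform annotation 41091 probe sets had a single symbol, 1801 several and 11721 none, and 62 controls were left out. Probe sets of 1 gene were kept apart. R 4.3.3 and limma 3.58.1 were used to fit the 54613 others (a mean per time in lmFit, then eBayes, 5 residual degrees of freedom), two-sided, with p-values adjusted over all of them (Benjamini-Hochberg, 0.05); no filter on dim probe sets was used. The fit was tested on simulated data. Single probe sets were also tested by exact permutation over the arrays.

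Members, gene lists, panel and alternatives were chosen with earlier results of these data known. The named genes are all NR3C1 probe sets, up to 4 called genes per list, a panel (NR3C2, PGR, HSD11B1, HSD11B2, FKBP5, FKBP4, TSC22D3, MYB, ETS1, SPI1 and NCOA2) and the 6 genes nearest to NR3C1. List members without a probe set of a single symbol were not analysed here, and a gene of the panel is not reported here. Promoter sequences are RefSeq's for GRCh38.p14; a build for the arrays was not given in the sources used here. With 2 to 3 arrays per time, their number limits the precision.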

Additional observations from a re-analysis of the deposited data

How the results depend on the processing

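Over 18 alternatives per comparison, every NR3C1 log2 fold change kept its direction, from 1.30 to 2.02 at 10 h against 0 h, 0.44 to 1.49 at 2 h against 0 h and 0.15 to 1.40 at 10 h against 2 h. At 2 h, 0 probe sets were called as deposited, 1 with 1 probe set per gene, 4 with trended robust variances and 2 with array weights. The share of all probe sets called under these other settings is not given here. At 10 h the count was 4, and it was 4 or 5 with each 0 h or 2 h array left out in turn. Settings that left 1 array at 10 h lowered the count. These were either 10 h array left out, and the 3 arrays with the lowest medians left out. For 10 h against 2 h no alternative called an NR3C1 probe set. The permutation test of the course over time passed 4 probe sets, 1 to 5 with each array left out and 0 without those 3 arrays, where 30 assignments cannot give a p below 0.0667. The single pair whose difference in course had an unadjusted exact permutation p below 0.05 (1 of 4) became 0 to 1 with each array left out. It became 0 without those 3 arrays. With a replicate block the 10 h count was 5 and the 2 h count 0. The labels do not say that replicate numbers pair arrays, and deviations of same-numbered arrays correlated between −0.28 and 0.28. Signal near background limits 232431_at.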
